A study of Homo sapiens with 18 samples.

Results

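Sterols and fatty acids are built from cytosolic acetyl-CoA by enzymes whose genes are switched on together by the sterol regulatory element-binding proteins, transcription factors encoded by SREBF1 and SREBF2. These factors are made as membrane proteins that SCAP escorts to the Golgi for cleavage when membrane sterol is low, and INSIG1 and INSIG2 hold them in the endoplasmic reticulum when sterol is plentiful. SREBF2 is best known for the sterol branch and the SREBF1 isoforms for the fatty acid branch, and dividing cells such as K562, a human erythroleukaemia line, draw on both branches for new membrane. The genes described are a list of 29 by name, of 24395 genes with counts: 18 of the sterol branch from ACAT2 and HMGCS1 to DHCR7, 4 regulators and transport genes (INSIG1, SREBF1, SREBF2 and STARD4), and 7 of the fatty acid branch (ACLY, ACACA, FASN, SCD, ELOVL6, FADS1 and FADS2). The rule is by name and uses no measured value, and all 29 passed the filter on low counts, with a lowest count of 196.

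The data are RNA-seq counts of K562 cells, with 18 libraries in 6 groups of 3. KRAB_CR4 and KRAB_CR10 carried a catalytically inactive Cas9 (dCas9) fused to the KRAB repressor domain with the guide RNA (gRNA) CR4 or CR10, both aimed at the globin enhancer HS2. dCas9_CR4 and dCas9_CR10 carried dCas9 without KRAB and the same gRNAs, and KRAB_no_gRNA carried dCas9-KRAB and no gRNA. These 5 groups received lentivirus with 4 µg/ml polybrene and were selected with 1 µg/ml puromycin begun about 96 hours later, as populations in which no clone is named, while no_lentivirus was not transduced. The titles number the libraries of each group 1 to 3. What a number marks is not stated, so that p-values measure the spread between these libraries, which may be technical. Lentiviral libraries of the same number may share 1 culture or preparation. In that case number 3 is 1 unit, and p-values by number measure the spread within such units, not between them.

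Library totals lay between 22805964 and 34032962 counts. The globin genes followed the labels: HBE1, the embryonic globin, averaged 61.6 ± 6.2 CPM in KRAB_CR4 and 85.0 ± 11 CPM in KRAB_CR10, against 457 ± 17.8 CPM in KRAB_no_gRNA (SD, n = 3 each; CPM are counts per 1000000 counts of a library, with library totals scaled by TMM). The 9 K562 markers lay between 55.8 and 1439 CPM, and the 15 markers of other cell types between 0 and 115 CPM. Of these, MS4A1 was at 0 in all 18 libraries and CD14 at most at 0.279 CPM, while EPCAM at 80.7 to 115 CPM, KRT19 at 44.1 to 74.7 CPM, COL1A2 at 17.1 to 40.6 CPM, LYZ at 10.9 to 36.9 CPM and CD3D at 3.63 to 10.6 CPM were detected in every library. Libraries stood apart in 3 ways that touch the results. The share of ribosomal RNA was 4.02% in library 2 of KRAB_CR4 and 3.52% in library 1 of KRAB_CR10. The 5 lentiviral libraries numbered 3 differed from those numbered 1 and 2 in 53.8% of all genes tested, and untransduced library 2 differed from both other untransduced libraries more than these did from each other.

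Short stretches of DNA upstream of 6 members are shown because they hold CCAAT boxes, sites of the factor NF-Y that commonly acts beside the sterol regulatory factors. The first 4 come from the members with the largest differences by library number that have a CCAAT box within 250 bases upstream of the RefSeq start. The last 2 and INSIG1 also hold the letters CACNCCAC of the sterol regulatory element. Capitals mark both motifs on either strand, so that a box on the opposite strand reads ATTGG. Each stretch is 100 bases from RefSeq promoters of GRCh38.p14, written 5′ to 3′ along the gene's strand.
MSMO1, chr4:165327457-165327556, plus strand: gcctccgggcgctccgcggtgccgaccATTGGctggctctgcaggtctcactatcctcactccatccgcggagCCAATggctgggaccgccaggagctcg
TM7SF2, chr11:65111748-65111847, plus strand: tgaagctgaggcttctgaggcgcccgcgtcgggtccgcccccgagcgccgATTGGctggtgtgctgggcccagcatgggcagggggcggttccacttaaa
INSIG1, chr7:155297639-155297738, plus strand: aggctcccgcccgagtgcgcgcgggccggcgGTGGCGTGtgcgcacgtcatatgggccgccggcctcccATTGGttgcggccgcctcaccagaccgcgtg
HMGCS1, chr5:43313491-43313590, minus strand: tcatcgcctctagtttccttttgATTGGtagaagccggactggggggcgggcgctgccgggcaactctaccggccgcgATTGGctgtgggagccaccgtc
SREBF2, chr22:41832936-41833035, plus strand: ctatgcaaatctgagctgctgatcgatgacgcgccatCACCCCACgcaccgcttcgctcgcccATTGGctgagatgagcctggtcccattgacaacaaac
SCD, chr10:100347033-100347132, plus strand: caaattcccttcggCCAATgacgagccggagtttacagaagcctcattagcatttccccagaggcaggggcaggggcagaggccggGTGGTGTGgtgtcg

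Promoters were matched for 25 of the 29 members; those of FDFT1, SQLE, ACAT2 and FASN are named only. Within the 250 bases upstream, searched on both strands, CCAAT occurred in 17 of the 25, or 68%, against 33% of 27305 promoters and 35.4% of the 11156 promoters of tested genes. The letters CACNCCAC occurred in 3 of the 25 (INSIG1, SREBF2 and SCD), or 12%, against 4.72% of all promoters. The GC box GGGCGG, a site of Sp1, occurred in 23 of the 25, or 92%, against 42.3% of all promoters and 65.6% of those of tested genes. These are matches of letters, and binding was not measured.

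Levels between genes can be compared only per transcript length, here as CPM per kilobase averaged over the 18 libraries. On that scale FADS1, the desaturase that makes arachidonic acid, was highest at 221, before SCD, the desaturase that makes oleate, at 173 and FASN, the fatty acid synthase, at 164. In the sterol branch FDPS, the farnesyl pyrophosphate synthase, stood at 124 and FDFT1, the squalene synthase, at 120. Among the lowest were HSD17B7, the sterol ketoreductase, at 9.30, TM7SF2, a sterol reductase, at 8.27 and STARD4, a carrier of sterol between membranes, at 6.44. FADS1 averaged 1001 ± 328 CPM over the 18 libraries and SCD 928 ± 98 CPM (SD), so that the spread of FADS1 was wider than the distance between their means.

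**Figure D1:**
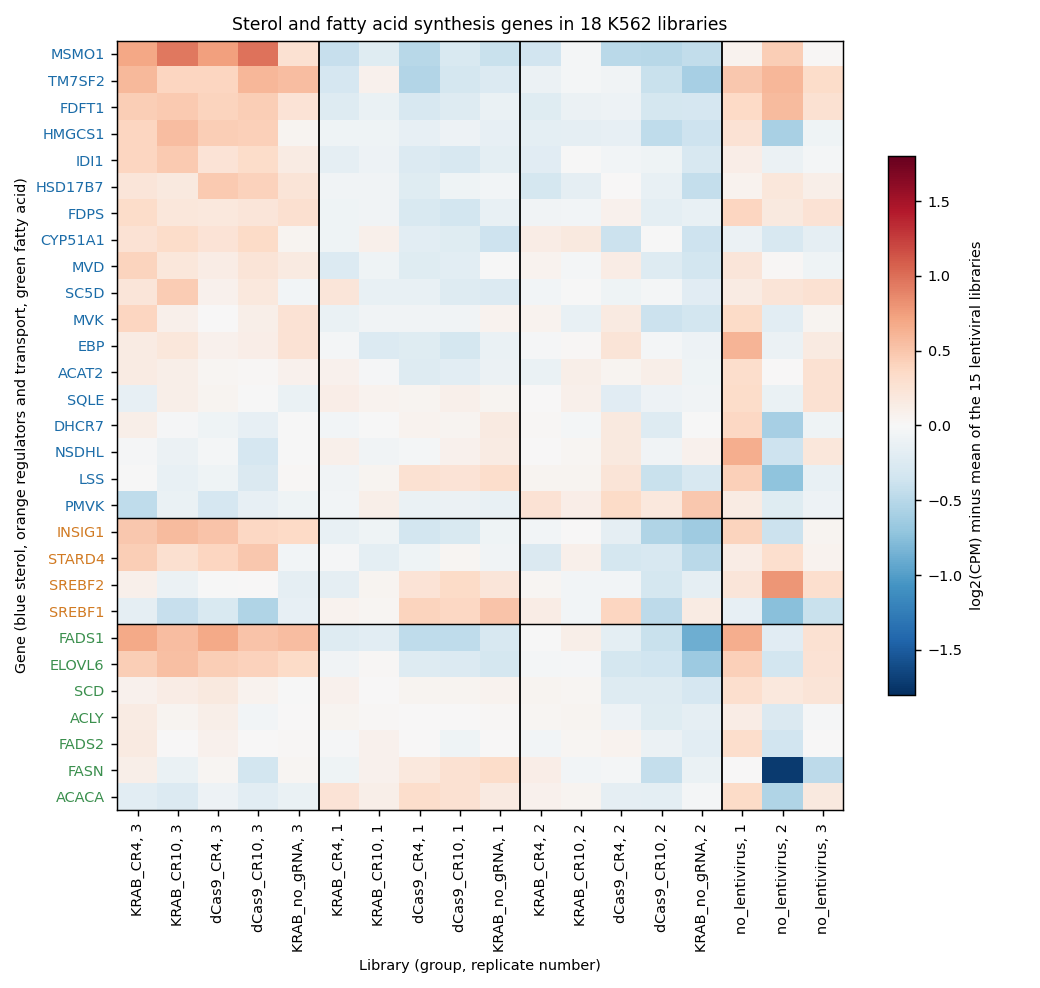
Each row is a member and each column a library, with the 5 lentiviral libraries numbered 3 at the left, then numbers 1 and 2 and the 3 untransduced libraries; colour gives log2(CPM) minus the mean of the 15 lentiviral libraries. Most rows of the sterol branch, INSIG1, STARD4, ELOVL6 and FADS1 are red in all or most of the libraries numbered 3, and FASN is darkest blue in untransduced library 2.

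These genes differed by library number. In the 5 lentiviral libraries numbered 3, 17 of the 29 members were higher than in the 10 numbered 1 and 2 and 3 were lower, with the group in the model (edgeR's quasi-likelihood test, Benjamini-Hochberg adjusted p under 0.05 over all 14599 genes). Across all genes 53.8% passed in this comparison, 27.9% as higher and 25.9% as lower, so that the share of members called higher, 58.6%, was above the background and the share called lower was not. The median log2 fold change was 0.28 over the members and 0.03 over all genes tested. In 10 members, or 34.5%, every library numbered 3 lay above every library numbered 1 or 2, against 9.12% of all genes, and no member lay wholly below, against 11.7%. Of all 29 members, 18 were above the mean of numbers 1 and 2 in all 5 groups and 4 were below it in all 5. The share of all genes with such a pattern was not computed. Without the 2 libraries richest in ribosomal RNA the counts were again 17 and 3. In bulk RNA, fewer cells of a type and less RNA per cell cannot be told apart, and what sets number 3 apart was not tested.

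In the mevalonate steps HMGCS1, MVK, MVD, IDI1 and FDPS rose and PMVK fell. HMGCS1, the cytosolic HMG-CoA synthase, had 238, 267, 246, 245 and 188 CPM in the libraries numbered 3 of KRAB_CR4, KRAB_CR10, dCas9_CR4, dCas9_CR10 and KRAB_no_gRNA, against 132 to 172 CPM with a median of 164 CPM in the 10 numbered 1 and 2. The number 3 libraries all lay above the others, with a log2 fold change of 0.58 ± 0.06 (SE; adjusted p = 1.32e-07). IDI1, the isomerase that makes the starter unit for chain growth, had 199, 211, 181, 191 and 168 CPM in the same 5 libraries, against 125 to 152 CPM with a median of 135 CPM. Its log2 fold change was 0.50 ± 0.06 (adjusted p = 4.43e-07), again without overlap.

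FDPS had 197, 182, 179, 184 and 193 CPM in the number 3 libraries, against 125 to 167 CPM with a median of 146 CPM in numbers 1 and 2. It rose by a log2 fold change of 0.39 ± 0.06 (adjusted p = 1.00e-05). Of the mevalonate kinases and the decarboxylase between HMGCS1 and IDI1, MVK had a log2 fold change of 0.28 and MVD of 0.36, while PMVK, the phosphomevalonate kinase, fell by 0.31 on the log2 scale. PMVK had 12.5 to 16.3 CPM in number 3 and 15.7 to 23.9 CPM in numbers 1 and 2, and it did not pass against number 1 alone (log2 fold change -0.13). The rise of MVK did not pass without KRAB_CR4 library 3 (0.23, adjusted p = 0.0509). Exons of MVK and MMAB overlap on opposite strands by at most 69 bases, where reads cannot be told apart without strand.

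At the entry to the sterol branch FDFT1 had 333, 340, 324, 332 and 290 CPM in the number 3 libraries, against 197 to 230 CPM with a median of 210 CPM in numbers 1 and 2. All 5 lay above the other 10, with a log2 fold change of 0.63 ± 0.06 (adjusted p = 2.50e-08). The next enzyme, SQLE, the squalene epoxidase and a slow step of the pathway, had 160, 189, 182, 175 and 162 CPM in number 3, against 153 to 192 CPM with a median of 183 CPM. The ranges of SQLE overlapped throughout, and its log2 fold change of -0.01 had a 95% interval of -0.15 to 0.12. LSS, which closes the ring to lanosterol, had a log2 fold change of -0.13 and did not pass, but passed as lower against number 1 alone (-0.23, adjusted p = 0.0424).

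The largest difference of any member came after lanosterol, in MSMO1, the oxidase that removes methyl groups from the sterol ring. MSMO1 had 89.7, 106, 92.2, 109 and 67.1 CPM in the number 3 libraries, against 38.9 to 53.8 CPM with a median of 41.6 CPM in numbers 1 and 2. The lowest number 3 library, of KRAB_no_gRNA, still lay above all 10 others, and the log2 fold change was 1.12 ± 0.07, a 2.17-fold difference (adjusted p = 5.41e-10). TM7SF2 had 19.5, 16.9, 17, 19.7 and 19.0 CPM in number 3, against 8.59 to 13.7 CPM with a median of 10.7 CPM. It rose by 0.77 ± 0.10 on the log2 scale (adjusted p = 1.59e-06) from a low level.

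CYP51A1, the demethylase that acts on lanosterol, had 215, 225, 212, 226 and 185 CPM in number 3, against 137 to 202 CPM with a median of 164 CPM in numbers 1 and 2. It rose by 0.39 ± 0.06 on the log2 scale (adjusted p = 4.40e-05), with overlap through the KRAB_no_gRNA library. HSD17B7 (0.47), SC5D (0.29), the lathosterol oxidase, and EBP (0.27), the sterol isomerase, rose as well. EBP did not pass against number 2 alone (0.16, adjusted p = 0.0848). Reads of HSD17B7 could be shared with its near-identical copy HSD17B7P2, which held 20 to 52 counts a library, against at least 196 for HSD17B7. DHCR7, the last reductase, at -0.03, NSDHL, a dehydrogenase that works with MSMO1, at -0.12 and ACAT2, the thiolase at the start of the pathway, whose exons overlap TCP1 and SOD2 on the other strand, at 0.14 did not pass. ACAT2 passed as higher under 6 alternatives (0.15 to 0.22), library totals without TMM, upper quartile scaling and number 1 alone among them. In all, 12 of the 18 sterol branch members rose and 1 fell, and 7 lay wholly higher. Over all genes 27.9% passed as higher, 25.9% passed as lower and 9.12% lay wholly higher.

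**Figure D2:**
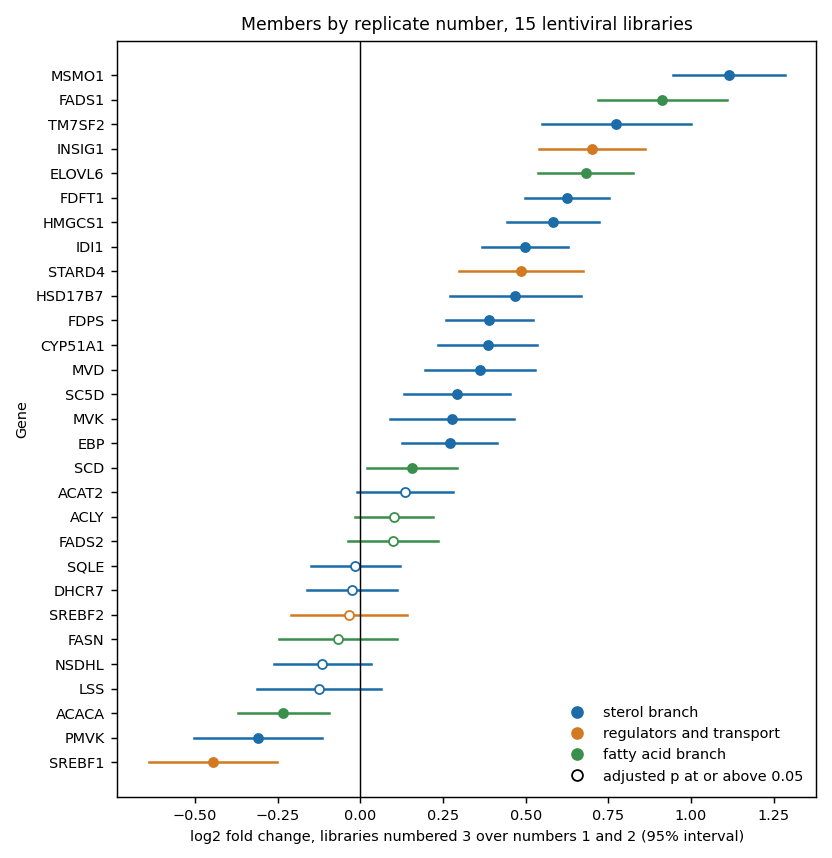
Points give the log2 fold change of the 5 lentiviral libraries numbered 3 over the 10 numbered 1 and 2 for each of the 29 members, bars the 95% interval and colour the branch; open points did not pass. MSMO1 stands at 1.12 and FADS1 at 0.91, while SREBF1 at -0.45 stands at the other end.

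Among the regulators, INSIG1, which holds the SCAP complex in the endoplasmic reticulum and is itself a target of the sterol regulatory factors, had 444, 471, 452, 409 and 405 CPM in number 3, against 203 to 319 CPM with a median of 286 CPM in numbers 1 and 2. The 2 ranges did not meet, and the log2 fold change was 0.70 ± 0.07 (adjusted p = 8.81e-08). STARD4 rose by 0.49, with 27.7 to 40.0 CPM in number 3 and 20.5 to 30.6 CPM in numbers 1 and 2. Neither transcription factor gene passed as higher. SREBF1 fell by 0.45 on the log2 scale (adjusted p = 1.47e-04), with 160, 134, 148, 123 and 162 CPM in number 3, against 129 to 254 CPM with a median of 198 CPM in numbers 1 and 2. SREBF2 had 225, 195, 210, 212 and 189 CPM in number 3, against 169 to 267 CPM with a median of 211 CPM, and its log2 fold change was -0.03 (95% interval -0.21 to 0.14).

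In the fatty acid branch 3 of 7 members rose and 1 fell, where 27.9% of all genes passed as higher and 25.9% as lower. The largest rises were those of FADS1 and ELOVL6. FADS1, whose exons overlap those of FADS2 on the other strand, had 1484, 1355, 1488, 1320 and 1358 CPM in number 3, against 502 to 993 CPM with a median of 772 CPM in numbers 1 and 2. The lowest library numbered 3 stood at 1320 CPM and the highest of the others at 993 CPM, and the log2 fold change was 0.91 ± 0.08 (adjusted p = 4.11e-08). ELOVL6, which lengthens palmitate to stearate, had 111, 119, 112, 110 and 104 CPM in number 3, against 52.2 to 82.8 CPM with a median of 69.6 CPM. It rose by 0.68 ± 0.06 on the log2 scale (adjusted p = 3.12e-08) without overlap.

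Of the steps up to palmitate none passed as higher with TMM. ACACA, the carboxylase that makes malonyl-CoA, fell by 0.23 on the log2 scale (adjusted p = 2.40e-03), with 269 to 302 CPM in number 3 and 284 to 397 CPM in numbers 1 and 2, and did not pass against number 2 alone (-0.11). FASN had 1582, 1364, 1507, 1171 and 1509 CPM in number 3, against 1096 to 1854 CPM with a median of 1497 CPM, and its log2 fold change was -0.07 (95% interval -0.25 to 0.11). ACLY, which supplies cytosolic acetyl-CoA, at 0.10 and FADS2, the desaturase that acts before FADS1, at 0.10 did not pass. Both passed as higher with library totals without TMM (ACLY 0.175, adjusted p = 0.00679; FADS2 0.172, adjusted p = 0.0205) and with upper quartile scaling (0.188 and 0.185). SCD rose by 0.16 (edgeR adjusted p = 2.99e-02), with 897 to 1016 CPM in number 3 and 725 to 943 CPM in numbers 1 and 2. It did not pass when any 1 of 9 libraries was left out (0.11 to 0.17) or against number 1 alone (0.07, edgeR adjusted p = 0.387).

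**Figure D3:**
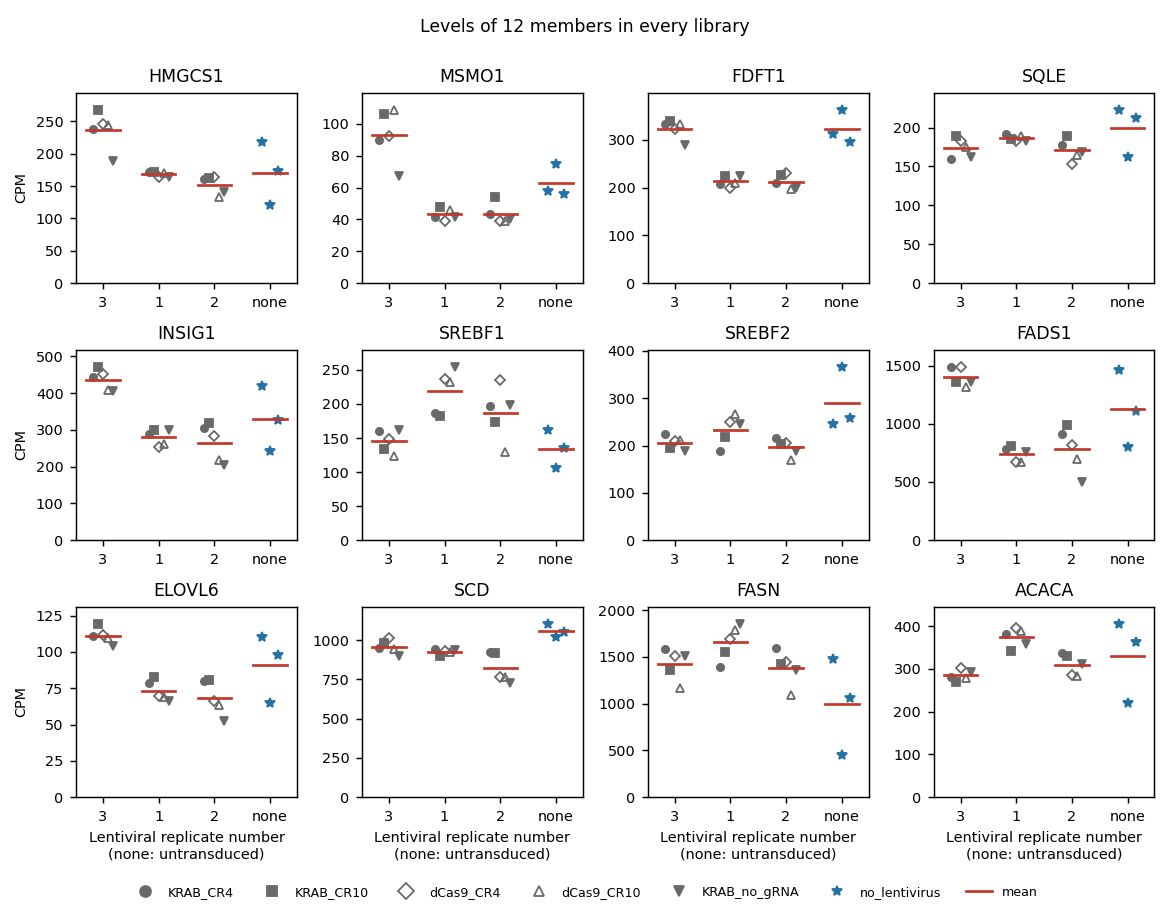
CPM of 12 members in every library on axes that start at 0, with lentiviral libraries by replicate number (3, then 1 and 2) and the untransduced libraries last; symbols give the group and red lines the mean. For MSMO1, FDFT1, HMGCS1, INSIG1, FADS1 and ELOVL6 all 5 libraries numbered 3 lie above the 10 numbered 1 and 2, while for SQLE, SREBF2 and FASN they overlap.

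The libraries numbered 3 were not equal to each other. KRAB_no_gRNA library 3 was the lowest of the 5 in 10 of the 17 members that rose, including MSMO1, FDFT1, HMGCS1, IDI1 and INSIG1. The 17 were picked for rising in these libraries, and the share of all genes lowest in this library was not computed. As number 3 holds no repeat within a group, the 10 describe a library and cannot tell whether the groups differ. For 20 of the 29 members the difference by number was larger than the widest gap between any of the 5 lentiviral group means. That gap had a median of 0.18 and a maximum of 0.43 on the log2 scale, the latter in CYP51A1. The same count was not made over all genes, of which 53.8% passed by number. The scaling set the direction of the smallest differences: SQLE, DHCR7, SREBF2 and FASN, below 0 with TMM, lay between 0.00 and 0.07 with library totals or upper quartile scaling. Over all genes the split was 5293 higher and 2726 lower with upper quartile scaling, against 4075 and 3782 with TMM, and the members then split 20 and 3.

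Genes of the same pathways outside the list did not move as a block. Of 17 other sterol genes 5 rose and 5 fell in number 3, with a median of 0.04, where 27.9% of all genes passed as higher and 25.9% as lower. RDH11, a reductase and known sterol-regulated gene, had 145 to 169 CPM in number 3 and 69.9 to 111 CPM in numbers 1 and 2 (log2 fold change 0.82, adjusted p = 2.16e-08). INSIG2, the partner of INSIG1 in holding the SCAP complex, had 12.7 to 19.2 CPM in number 3 and 8.74 to 14.6 CPM in numbers 1 and 2 and rose by 0.37 (adjusted p = 0.00316).

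Of 19 other fatty acid and lipid genes 9 rose and 6 fell, with a median of 0.18, against the same 27.9% and 25.9% of all genes. ACSS2, the acetyl-CoA synthetase, rose by 0.68 and SLC25A1, the citrate carrier, by 0.41, while GPAM, which starts glycerolipid synthesis, fell by 0.70. Of 8 genes of the liver X receptors, which respond to oxysterols, and their targets, 5 were tested: NR1H3 rose by 0.45 and MYLIP fell by 0.21. ABCA1 and ABCG1 stayed at or below 0.182 CPM in every library.

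Other lists moved with number 3, where 27.9% of all genes passed as higher and 25.9% as lower. Of 14 amino acid and stress response genes 13 rose, with a median of 0.92 and a summed level of 2384 to 3653 CPM in number 3 and 1891 to 2155 CPM in numbers 1 and 2. Of 9 proliferation genes 1 rose and 6 fell (2368 to 2552 CPM summed in number 3 and 2549 to 2920 CPM in numbers 1 and 2). Of the 9 K562 markers 5 fell, globin genes among them (2169 to 3831 CPM summed in number 3 and 2873 to 4576 CPM in numbers 1 and 2). The K562 sums also differ by group, as HBE1 averaged 61.6 CPM in KRAB_CR4 and 457 CPM in KRAB_no_gRNA. Of the 15 markers of other cell types 7 were tested and 5 rose (221 to 247 CPM summed in number 3 and 189 to 229 CPM in numbers 1 and 2). Ribosomal RNA held 1.08% to 1.20% of the counts in number 3 and 0.570% to 4.02% in numbers 1 and 2. The part of each in the sterol and fatty acid result was not tested. Over all 18 libraries the 5 genes whose log2 CPM followed HMGCS1 most closely by Pearson's correlation were INSIG1, PLPP2, SLC2A4, ELOVL6 and STOM; as the libraries fall into clusters by number, no coefficient is given and the ranking is a description only.

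Between libraries numbered 2 and 1, no member passed, where 1.04% of all genes did (edgeR's quasi-likelihood test). The unadjusted p of this test was under 0.05 for 8 members. DESeq2 called 2 members, and 889 of all 14599 genes. The members with the smallest p were PMVK, at 20.9 ± 2.05 CPM in number 2 and 16.5 ± 1.18 CPM in number 1 (SD, n = 5 each; log2 fold change 0.36, edgeR adjusted p = 0.0595), ACACA, at 310 ± 24.5 CPM in number 2 and 374 ± 22.1 CPM in number 1 (-0.25, adjusted p = 0.0621), and EBP, at 110 ± 9.8 CPM in number 2 and 95.3 ± 7.4 CPM in number 1 (0.23, adjusted p = 0.102). PMVK and ACACA passed without either of libraries 1 and 2 of KRAB_CR10 or library 1 of KRAB_CR4 (0.37 to 0.42 for PMVK and -0.32 to -0.28 for ACACA), and ACACA also without KRAB_CR4 library 2 (-0.30) or dCas9_CR4 library 3 (-0.27). For PMVK the libraries numbered 2 all lay above those numbered 1, as in 1.17% of all genes, and for ACACA all below, as in 2.71%. HMGCS1, INSIG1, SQLE, SREBF1, SREBF2, FASN and SCD lay between -0.25 and -0.08.

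Targeting the globin enhancer was compared with the controls to ask for changes away from the globin genes. With KRAB and a gRNA against KRAB without one, no member passed for either gRNA; 0.0204% of all genes did, which were 3 globin genes. With the number as a block over the 15 lentiviral libraries, again no member passed, while 6 genes did for KRAB_CR4 and 7 for KRAB_CR10. For KRAB_CR4 no member had an unadjusted p under 0.05 and for KRAB_CR10 1 did, while DESeq2 called none in either. In KRAB_CR10 that member was CYP51A1, with 191, 202 and 225 CPM, against 138, 138 and 185 CPM in KRAB_no_gRNA. All 3 KRAB_CR10 libraries lay above those without gRNA, a log2 fold change of 0.42 (95% interval 0.04 to 0.80; edgeR adjusted p = 0.999). SQLE also lay wholly higher (185, 189 and 189 CPM, against 183, 168 and 162 CPM), as did 4.13% of all genes in this comparison. In KRAB_CR4 it was ACLY that lay wholly higher (524, 521 and 561 CPM, against 516, 454 and 509 CPM in KRAB_no_gRNA), as did 3.04% of all genes.

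In KRAB_CR4, CYP51A1 had 170, 197 and 215 CPM, which overlapped with KRAB_no_gRNA (log2 fold change 0.33, interval -0.04 to 0.71). SC5D had 54.9, 45.8 and 54.9 CPM in KRAB_CR4 and 43.0, 46.8 and 64.8 CPM in KRAB_CR10, against 39.9, 41.0 and 45.9 CPM in KRAB_no_gRNA, where both log2 fold changes, 0.30 and 0.29, had intervals that held 0. Of the other members among the 3 with the smallest p, STARD4 had a log2 fold change of 0.26 in KRAB_CR4 and SREBF1 -0.32 in KRAB_CR10. Over the 29 members the log2 fold changes ran from -0.18 to 0.33 with a median of 0.08 in KRAB_CR4, and from -0.32 to 0.48 with a median of 0.09 in KRAB_CR10, against medians of 0.00 and -0.02 over all genes. Both comparisons share the KRAB_no_gRNA libraries.

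With KRAB against dCas9 at the same gRNA no member passed for CR4 or CR10, against 0.0204% of all genes each, and none had an unadjusted p under 0.05 or was called by DESeq2. With the number as a block over the 15 lentiviral libraries 8 genes passed at CR4 and 7 at CR10, none of them a member. CYP51A1 had 170, 197 and 215 CPM in KRAB_CR4, against 158, 137 and 212 CPM in dCas9_CR4 (log2 fold change 0.20, interval -0.18 to 0.58). SC5D at 0.18 and SREBF1 at -0.18 followed. At CR10, ACLY had 513, 523 and 526 CPM in KRAB_CR10, against 509, 436 and 489 CPM in dCas9_CR10. Its groups did not overlap, which held for 1.54% of all genes as higher, with a log2 fold change of 0.12 (interval -0.12 to 0.36). INSIG1 at 0.29 and SC5D at 0.14 followed. In the difference of the KRAB effects at CR4 and CR10 no member passed (0% of all genes; no unadjusted p of a member under 0.05, and none called by DESeq2); the smallest p belonged to LSS (-0.26, interval -0.96 to 0.45), SREBF1 (-0.20) and FADS2 (-0.11).

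With dCas9 and a gRNA against KRAB_no_gRNA no member and no gene passed, no unadjusted p of a member was under 0.05, and DESeq2 called none of them. STARD4 had 27.0, 22.9 and 37.5 CPM in dCas9_CR4, against 27.5, 20.5 and 27.7 CPM in KRAB_no_gRNA (log2 fold change 0.21, interval -0.29 to 0.70), followed by HMGCS1 at 0.22 and HSD17B7 at 0.17. These 3 small differences rested on dCas9_CR4 library 3 and were below 0 without it. In dCas9_CR10, CYP51A1 had 154, 179 and 226 CPM, against 138, 138 and 185 CPM (0.28, interval -0.10 to 0.65), followed by SREBF1 at -0.34 and STARD4 at 0.29. Over the 6 comparisons between lentiviral groups HMGCS1, INSIG1, SQLE, SREBF1, SREBF2, FASN and SCD lay between -0.34 and 0.29. The 95% intervals of all members in these 6 lay within -0.90 to 1.41. These intervals, like the others given between groups, come from the fit of all 18 libraries with group means only. Differences by number and the spread of the untransduced libraries thus add to their width. Intervals with the number as a block are not given.

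**Figure D4:**
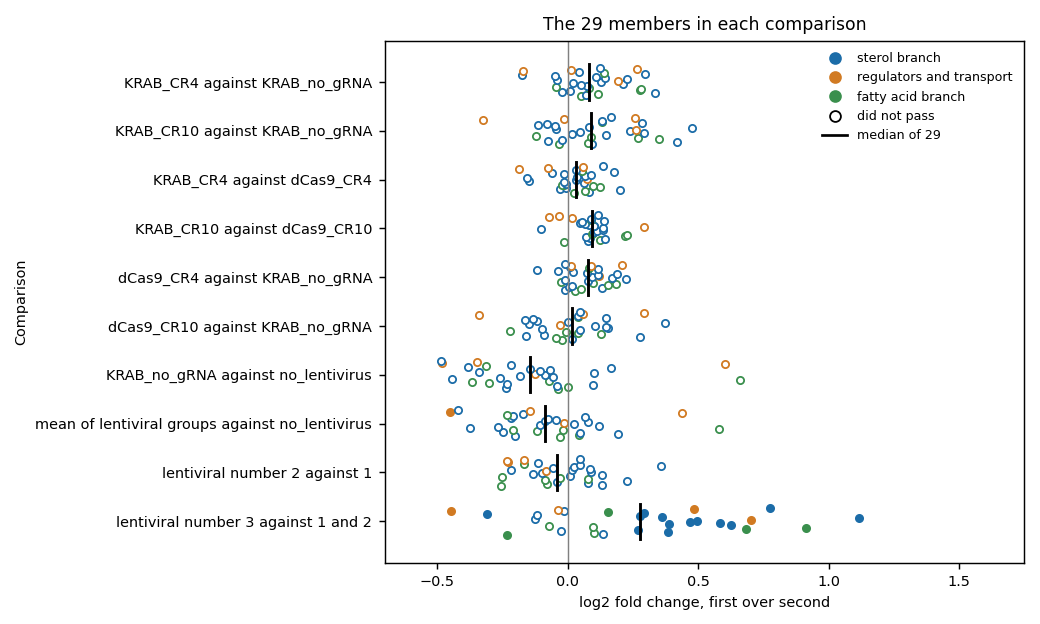
Each point is 1 of the 29 members, placed by its log2 fold change (first group over second) in each of 10 comparisons; filled points passed and the black line is the median of the 29. Filled points occur for number 3 against 1 and 2 and, once, for the lentiviral mean against no_lentivirus (SREBF2 at -0.45).

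Against untransduced cells the question was what delivery and selection did to the members. Between KRAB_no_gRNA and no_lentivirus no member passed, where 6.63% of all genes did; an unadjusted p under 0.05 was found for 5 members, and none was called by DESeq2. SREBF2 had 246, 189 and 189 CPM in KRAB_no_gRNA, against 246, 366 and 259 CPM in no_lentivirus (log2 fold change -0.48, interval -0.86 to -0.10, edgeR adjusted p = 0.0959). It passed without untransduced library 1 (-0.61, edgeR adjusted p = 0.0378), where untransduced library 2, the highest at 366 CPM, weighs more. SCD had 937, 725 and 897 CPM in KRAB_no_gRNA, against 1104, 1020 and 1053 CPM (-0.31, adjusted p = 0.119). SC5D had 39.9, 41.0 and 45.9 CPM, against 52.4, 55.4 and 57.1 CPM in no_lentivirus (-0.38, adjusted p = 0.126). For SCD, SC5D, FDFT1 and STARD4 every KRAB_no_gRNA library lay below every untransduced one and for SREBF1 above, where 13.4% of all genes lay wholly below and 13.1% wholly above.

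The mean of the 5 lentiviral groups differed from no_lentivirus in 1 member, SREBF2, where 18.7% of all genes passed, 7.55% as higher and 11.2% as lower. SREBF2 averaged 212 ± 26.3 CPM in the lentiviral libraries (SD, n = 15) and 290 ± 66.0 CPM in no_lentivirus (SD, n = 3), with overlap, and fell by 0.45 on the log2 scale (interval -0.74 to -0.17; edgeR adjusted p = 0.0254). The call rested on untransduced library 2: without it the log2 fold change was -0.25 (adjusted p = 0.335). FASN averaged 1489 ± 205 CPM in the lentiviral libraries, against 995 ± 519 CPM in no_lentivirus (0.58, edgeR adjusted p = 0.0853). Untransduced libraries 1, 2 and 3 had 1479, 447 and 1060 CPM of FASN. Without untransduced library 1, where the low library 2 weighs more, its log2 fold change was 0.97 (edgeR adjusted p = 0.00901). SCD averaged 901 ± 83.5 CPM in the lentiviral libraries, against 1059 ± 42.4 CPM in no_lentivirus (-0.23, edgeR adjusted p = 0.0892). For SCD alone among the members every lentiviral library lay below every untransduced one, as for 4.24% of all genes.

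With the lentiviral libraries numbered 3 left out, 10 members, or 34.5%, passed, where 30.1% of all genes did, 12% as higher and 18% as lower. The 10 were SREBF1, which was higher, and FDPS, FDFT1, MSMO1, TM7SF2, SC5D, SREBF2, SCD, ELOVL6 and FADS1, which were lower. With numbers 1 and 2 left out, each lentiviral group had 1 library and no member and no gene passed, while SREBF2 stood at -0.50 (adjusted p = 0.252). Both versions were chosen after the data were seen.

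The untransduced libraries themselves spread widely in these genes. FASN had 1479, 447 and 1060 CPM in libraries 1, 2 and 3, a 3.31-fold difference between the first and the second. FADS1 had 1460, 803 and 1113 CPM, INSIG1 420, 242 and 328 CPM, and LSS 182, 82.2 and 123 CPM. Library 1 was the highest of the 3 in 22 members and library 2 the lowest in 21, with SREBF2 (246, 366 and 259 CPM) and MSMO1 (57.9, 74.8 and 56.1 CPM) among the exceptions. Neither count was made over all genes, in which untransduced library 2 also stood apart. The 29 members together held 0.794% to 0.862% of the counts in the lentiviral libraries numbered 3, 0.568% to 0.722% in those numbered 1 and 2, and 0.824%, 0.566% and 0.705% in untransduced libraries 1, 2 and 3.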

How the data were processed

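The authors deposited 1 table of raw counts per library, by RefSeq transcript accession; every count was even, so each fragment appears to be counted as its 2 mates. Per the submitters' processing notes the build was hg19 and the tools included DESeq, R 3.1.2, Picard, SAMtools and Bowtie2, with no roles given; the counting tool is not given in the sources used here. Per the labels' protocols, RNA was selected with oligo-dT and libraries were made with Nextera, which keeps no strand. Of 40709 accessions 97.87%, with 99.02% of the counts, were named through RefSeq and GENCODE tables and summed to genes. edgeR 4.0.16 (R 4.3.3; filterByExpr, TMM, quasi-likelihood test) was run on all 18 libraries with 6 group means (14713 genes, biological coefficient of variation 21.6%), and on the 15 lentiviral libraries with group and number (14599 genes, 10.5%). Adjusted p-values are Benjamini-Hochberg over all genes, with a threshold of 0.05; standard errors come from the test's F value, and 95% intervals cover the spread between libraries. Tested on simulated data, the comparison by number recovered all genes changed 1.5-fold, that of KRAB_CR4 with KRAB_no_gRNA 14.9% of those changed 1.5-fold and 74.6% of those changed 2-fold. Alternatives were DESeq2 1.42.0, other scalings and filters, halved counts, a replicate block and leaving out each library.

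Members, lists, tests and motifs were chosen with earlier results of these data known. Values per library are given for members that passed between groups, the 10 with the smallest p by number, and the 3 with the smallest p where none passed; SQLE, SREBF1, SREBF2 and FASN were given by library by number as well. Deviations from group means correlated above 0.1 in all 30 same-numbered pairs of lentiviral libraries (0.17 to 0.89, 10398 genes; different numbers -0.79 to 0.64), and in 5 of 15 pairs with an untransduced library, so that numbers pair the lentiviral libraries only. Some genes of the lists are counted but not reported here by name.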

Additional observations from a re-analysis of the deposited data

Results flagged for a closer look

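In 87 sets of 5 lentiviral libraries that share a number, 1 for each member and number, 2 held a library far from the other 4 by Dixon's test (critical value 0.71); chance alone flags about 1 set in 20. HSD17B7 had 9.30 CPM in dCas9_CR4 library 1, against 10.2 to 10.5 CPM in the others numbered 1. SC5D had 54.9 CPM in KRAB_CR4 library 1, against 39.9 to 43.0 CPM in the others numbered 1.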

How the results depend on the processing

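The 20 calls between number 3 and numbers 1 and 2 numbered 19 to 21 when 1 library was left out, 20 to 23 under 7 other settings and 18 to 20 under 3 chosen after seeing the data; 18 of the 20 remained under every left-out library (not MVK and SCD). SQLE lay at 2.44e-05 with a filter at a mean of 50 counts; without TMM, SQLE was at 0.0585, DHCR7 at 0.0479, SREBF2 at 0.039 and FASN at 0.00411, and with upper quartile scaling at 0.072, 0.0607, 0.0521 and 0.0173. Against number 2 alone SQLE was at 0.0413, SREBF2 at 0.0814 and FASN at 0.0564. Leaving out 1 library took SQLE to between -0.0715 and 0.0139, and SC5D in KRAB_CR10 against dCas9_CR10 to between -0.0635 (without KRAB_CR10 library 3) and 0.261. In dCas9_CR4 against KRAB_no_gRNA it took STARD4 to between -0.0253 and 0.365, HMGCS1 to between -0.00956 and 0.348, and HSD17B7 to between -0.0538 and 0.35, the lowest each without dCas9_CR4 library 3. The cause of these was not tested, and none passed.

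Between numbers 2 and 1, DESeq2 called 2 members (889 of 14599 genes), no count filter 4 (864 of 19637 genes) and no group term 2. The 7 settings with all libraries, these among them, called 130 to 889 genes. Leaving out 1 library called 0 to 5 members and 0 to 864 genes. For the lentiviral mean against no_lentivirus, DESeq2 called 2 members (3452 of 14713 genes) and number 3 left out 10 (30.1% of all genes passed). Leaving out 1 library called 1 to 2 members and 346 to 3629 genes there. For KRAB_no_gRNA against no_lentivirus it called 0 to 2 members and 27 to 2447 genes. With the replicate block over 18 libraries these comparisons called 7 and 5 members (24.1% and 17.2%), where 28.5% and 17.8% of all genes passed, although numbers were not found to pair the untransduced libraries. With the block over the 15 lentiviral libraries, 0 members passed between constructs, as without it, and it changed no member's call; over all genes it called 6 to 8 in the 4 comparisons of KRAB with a gRNA, against 3 each over 18 libraries and 4 to 5 over these 15 without it. No member passed in the 6 comparisons between lentiviral groups or in the difference of the KRAB effects under any alternative or left-out library. In the simulated data, at 3 libraries a group and without the number in the fit, most 1.5-fold changes were below detection.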
